A study of Mus musculus with 45 samples.

Results

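The 10 genes described here encode the glucose transporter Slc2a1 and 9 enzymes that carry glucose to lactate: Hk1, Hk2, Pfkp, Aldoa, Gapdh, Pgk1, Pgam1, Pkm and Ldha. They were found by symbol in the table of read counts per gene, where each symbol named 1 row, and they make up 10 of the 28454 genes listed. The table covers 45 RNA libraries from 11 cell lines of mouse mammary tumours, each with 3 cultures per condition. MYAZ16_1e, MYAZ12_3i and MYAZ6_6g were derived from tumours that arose in MMTV-cMYC mice, in which a promoter active in the mammary gland drives the oncogene Myc, and they are called MYAZ here. Myc310 is 1 line from such a mouse that bore multiple tumours. LM1, LM2 and LM3 (LM) were isolated from lungs after Myc310 cells had been injected into the mammary fat pad. LM1_LM was isolated from lungs after injection of LM1, and LM2_LM and LM3_LM are its counterparts (LM_LM). MYAZ12_3i_NDI1 is a MYAZ12_3i line labelled NDI1, the name of a yeast NADH dehydrogenase. These 11 lines were cultured in control medium (33 libraries), and MYAZ16_1e, Myc310, LM1 and LM1_LM were also kept for 6 h in medium without cysteine and cystine (12 libraries). All 11 lines trace back to mice with a Myc transgene, so that no group stands for cells without it.

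In glycolysis, a transporter brings glucose into the cell, hexokinases trap it by phosphorylation, and phosphofructokinase commits it to the pathway. Aldolase splits the sugar, and the later enzymes oxidise the fragments, recover ATP and end in pyruvate, which lactate dehydrogenase reduces to lactate while it restores NAD. Tumour cells commonly run this route to lactate in the presence of oxygen, and the transcription factors HIF1A and MYC are known to act on many of its genes.

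Counts on genes ranged from 19517859 to 29019988 per library (median 22899900). The lowest count of any of the 10 genes in any library was 3234, and all 10 passed the filter on low counts in each model. Levels are given as CPM (counts scaled to 1000000 per library) after TMM scaling over all 45 libraries, and the 3 values in a sentence are those of cultures 1, 2 and 3. Together the 10 genes took 1.09% to 1.68% of all counts, as means of a line and condition. The submitters call the 3 cultures of a line technical replicates, so that the p-values measure the spread between these cultures and not between separate isolates of a line. Of 8 mammary epithelial markers, Epcam, Cdh1 and Krt5 were under 1 CPM in every library. The sum of all 8 was 339 to 1175 CPM in control MYAZ libraries, 1383 to 1399.5 CPM in Myc310, 1105 to 2144 CPM in LM and 1016 to 2464 CPM in LM_LM. The 8 fibroblast markers summed to 7.46 to 98.1, 1.73 to 2.16, 15.1 to 124.5 and 34.1 to 217 CPM in the same groups, with Dcn, Lum and Thy1 under 1 CPM in every library. Of 5 fibroblast markers tested in the subtype model below, 0, 1 and 1 were higher than in MYAZ in Myc310, LM and LM_LM. Those lower were 4, 3 and 4. Of 6 mammary markers tested, 2, 3 and 3 were higher and 2, 2 and 2 lower. Over all genes, 23.8%, 30.3% and 30.5% were higher and 27.1%, 30.5% and 32.3% lower. Leukocyte markers (6 of 8 found, Ptprc and Csf1r under 1 CPM in every library) summed to 17.7 to 39.0 CPM in control MYAZ and to 30.4 to 53.3 CPM in the control libraries of the other lines without NDI1, and they were higher after deprivation (47.6 to 51.8 CPM in MYAZ16_1e and 63.8 to 70.8 CPM in the other deprived libraries). In the deprived libraries of MYAZ16_1e, Myc310, LM1 and LM1_LM the mammary markers summed to 1353 to 1400.2, 1604 to 1640.1, 1383 to 1419 and 1317 to 1347 CPM, and the fibroblast markers to 10.7 to 11.9, 2.68 to 2.81, 10.5 to 11.4 and 26.9 to 29.2 CPM. Endothelial and alveolar markers summed to at most 7.08 and 6.72 CPM in any library. These sums move with line or treatment, and their part in the results was not tested. In such bulk libraries, fewer cells with a transcript and less transcript per cell cannot be told apart.

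**Figure D1:**
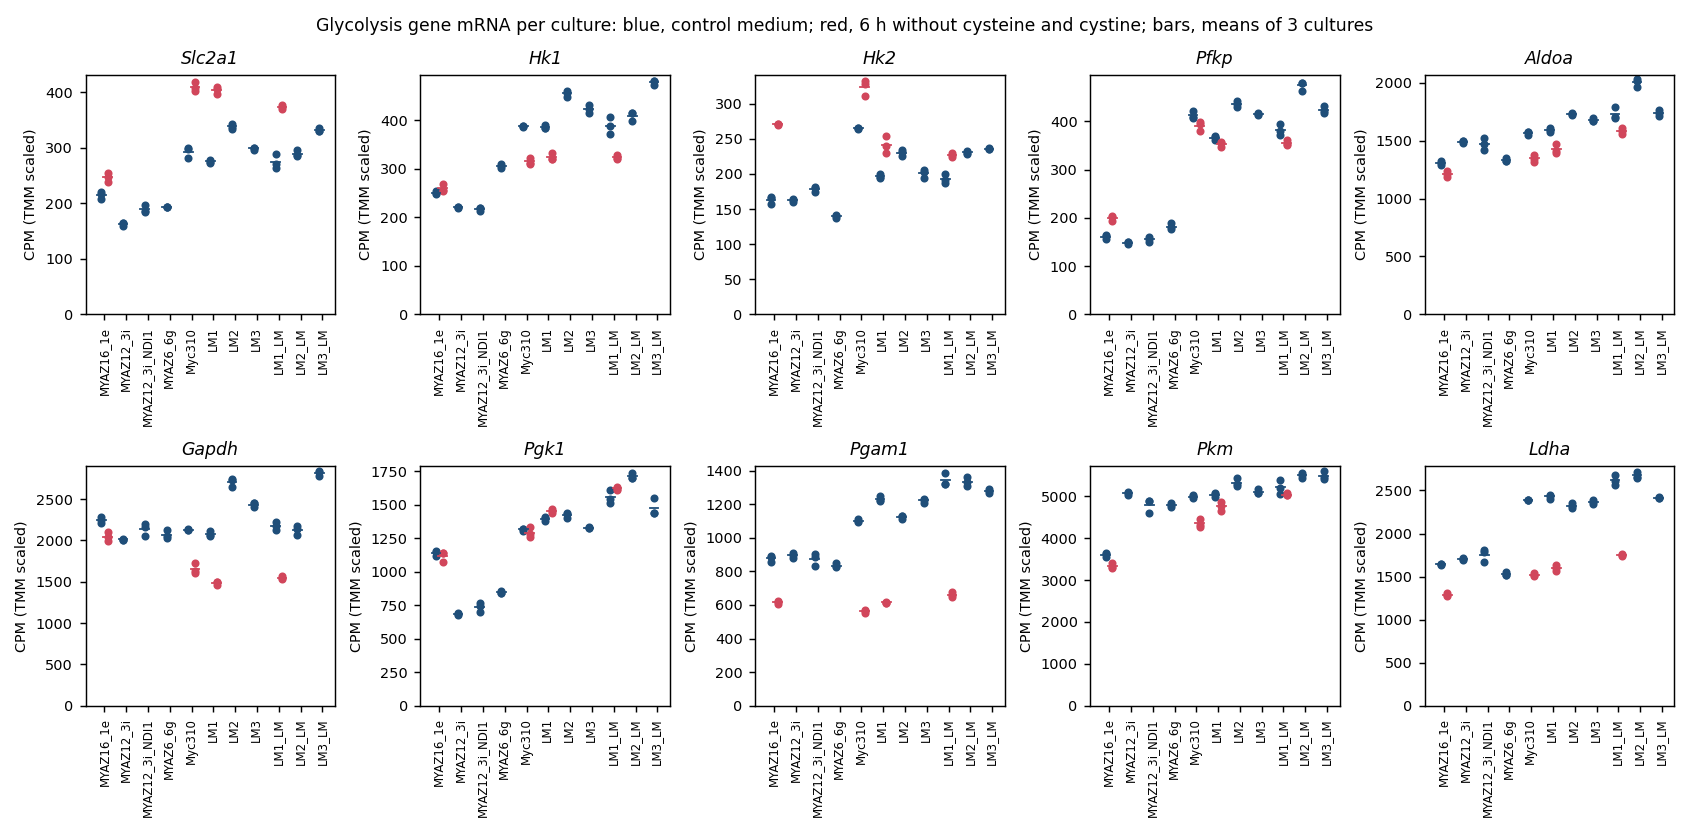
Level of each of the 10 genes (CPM after TMM scaling, linear axes from 0) in each culture of the 11 lines, in control medium (blue) and after 6 h without cysteine and cystine (red), with bars at the means of 3 cultures. The deprived cultures of Pgam1 lie between 554 and 675 CPM, under every control culture, and the 3 MYAZ lines and MYAZ12_3i_NDI1 lie under the other lines for Pfkp.

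The first comparison asks how these genes responded to 6 h without cysteine and cystine in each of 4 lines. Slc2a1 and the hexokinase gene Hk2 rose in all 4 lines, to between 1.15 and 1.65 times the control level. Aldoa, Gapdh, Pgam1 and Ldha fell in all 4 lines, most of all Pgam1, which was 1.43-fold lower in MYAZ16_1e and 1.96- to 1.98-fold lower in the other lines. Hk1 fell in the 3 lines other than MYAZ16_1e, and Pfkp rose in MYAZ16_1e and fell in Myc310 and LM1_LM. The log2 fold changes of Pgk1 and Pkm stayed between -0.21 and 0.10. By edgeR's quasi-likelihood F test, adjusted by Benjamini-Hochberg over 13400 genes, with a threshold of 0.05, 8 of the 10 genes passed in MYAZ16_1e (3 up, 5 down), 9 in Myc310 (2 up, 7 down), 8 in LM1 (3 up, 5 down) and 9 in LM1_LM (3 up, 6 down). Among all genes tested, 53.7% passed in MYAZ16_1e (26.6% higher and 27.1% lower), 66.8% in Myc310 (32.8% and 33.9%), 71.1% in LM1 (35.8% and 35.3%) and 72.4% in LM1_LM (36.5% and 35.9%), so that a high share of calls was also the background. The median log2 fold change of the 10 genes was -0.076 in MYAZ16_1e, -0.22 in Myc310, -0.086 in LM1 and -0.079 in LM1_LM, beside medians of all genes between -0.013 and 0. The share of all counts taken by the 10 genes was 1.18% in control and 1.09% in deprived MYAZ16_1e, 1.51% and 1.20% in Myc310, 1.49% and 1.19% in LM1, and 1.57% and 1.25% in LM1_LM. In the same test Chac1, Trib3 and Asns, known to be induced when amino acids are lacking, rose in each line, with log2 fold changes of 5.81 to 6.41, 3.98 to 5.08 and 2.17 to 2.60, as a check of the medium.

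**Figure D2:**
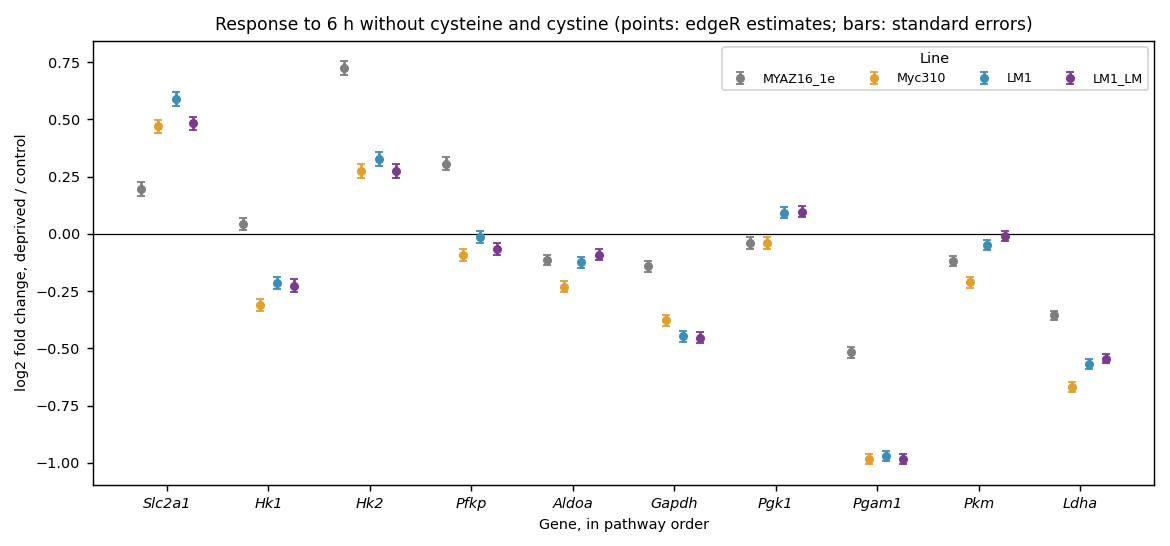
Response of the 10 genes to 6 h without cysteine and cystine (y axis, log2 fold change of deprived over control; x axis, genes in pathway order), as edgeR estimates for MYAZ16_1e (grey), Myc310 (orange), LM1 (blue) and LM1_LM (purple) with bars of 1 standard error, 3 cultures per condition. Slc2a1 and Hk2 lie above 0 in all 4 lines, Aldoa, Gapdh, Pgam1 and Ldha lie below 0 in all 4, and Pgam1 is lowest at -0.52 to -0.98.

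Slc2a1 (ENSMUSG00000028645, GRCm38 chr4:119108711-119137983, plus strand) encodes GLUT1, the transporter that takes up glucose in most cultured cells. In MYAZ16_1e, Slc2a1 measured 216, 220.2 and 208 CPM in control medium and 247, 254 and 239 CPM after deprivation. Myc310 gave 299, 298 and 281 CPM in control medium and 407, 402 and 419 CPM after deprivation. The groups did not overlap in either line. LM1 cultures held 274, 279 and 273 CPM in control medium and 409, 407 and 397 CPM after deprivation. LM1_LM cultures held 289, 271 and 263 CPM in control medium and 373, 371 and 378 CPM after deprivation. Every deprived culture was above every control culture of its line, and the fitted log2 fold change was 0.20 ± 0.031 in MYAZ16_1e (edgeR adjusted p = 2.91e-06), 0.47 ± 0.030 in Myc310 (edgeR adjusted p = 9.36e-15), 0.59 ± 0.030 in LM1 (edgeR adjusted p = 3.04e-17) and 0.48 ± 0.030 in LM1_LM (edgeR adjusted p = 3.42e-15). The microRNA gene Mir1957a lies within Slc2a1 on the same strand, and Gm12867 and Gm12868 overlap it on the other strand. The RefSeq promoter window (GRCm38.p6, chr4:119108495-119108794, plus strand, 250 bases before to 50 after the start site) is printed because Slc2a1 rose in all 4 lines. Capitals mark ACGTG and GCGTG on either strand (CACGT and CACGC when read on the other strand), the core letters of hypoxia response elements:
Slc2a1: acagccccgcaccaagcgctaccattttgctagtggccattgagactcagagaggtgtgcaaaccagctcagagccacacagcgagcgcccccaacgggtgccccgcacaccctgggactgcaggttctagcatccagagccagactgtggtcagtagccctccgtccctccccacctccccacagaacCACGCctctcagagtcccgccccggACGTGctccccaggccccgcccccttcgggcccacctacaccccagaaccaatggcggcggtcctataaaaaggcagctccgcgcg

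Hk2 (ENSMUSG00000000628, GRCm38 chr6:82725025-82774454, minus strand), an inducible hexokinase, had its largest response in the line with the smallest response of Slc2a1. In MYAZ16_1e, Hk2 measured 165, 168 and 158 CPM in control medium and 272, 269.5 and 271 CPM after deprivation. The deprived cultures lay within a few CPM of each other and far above the controls (log2 fold change 0.72 ± 0.032, 1.65-fold higher, edgeR adjusted p = 4.61e-18). Myc310 had 265, 265 and 264 CPM in control medium and 311, 328 and 332 CPM after deprivation. LM1 had 196, 195 and 200.5 CPM in control medium and 239, 229 and 254 CPM after deprivation. LM1_LM had 191, 188 and 201 CPM in control medium and 224, 227 and 231 CPM after deprivation. No groups overlapped, with log2 fold changes of 0.28 ± 0.031, 0.33 ± 0.032 and 0.27 ± 0.032 in these 3 lines (edgeR adjusted p = 2.98e-09, 1.54e-10 and 5e-09). Gm17034 overlaps Hk2 on the other strand. Its promoter window (RefSeq, GRCm38.p6, chr6:82774405-82774704, printed along the minus strand of the gene) is shown as that of the other gene that rose in all 4 lines, with ACGTG in capitals, read here on the other strand as CACGT:
Hk2: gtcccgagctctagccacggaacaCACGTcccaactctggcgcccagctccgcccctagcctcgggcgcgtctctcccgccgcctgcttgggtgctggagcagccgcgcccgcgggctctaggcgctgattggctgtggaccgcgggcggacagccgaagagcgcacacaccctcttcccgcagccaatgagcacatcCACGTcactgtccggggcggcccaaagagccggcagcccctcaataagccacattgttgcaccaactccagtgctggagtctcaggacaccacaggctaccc

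Hk1 (ENSMUSG00000037012, GRCm38 chr10:62268855-62379908, minus strand), the hexokinase found in most tissues, did not follow Hk2. In MYAZ16_1e its level was 248 to 253 CPM in control and 254 to 268 CPM in deprived cultures, a difference that did not pass the threshold (log2 fold change 0.043 ± 0.028, 95% interval -0.011 to 0.10, edgeR adjusted p = 0.194). Hk1 fell in Myc310 from 386 to 388 to 311 to 323 CPM, in LM1 from 384 to 390.4 to 320.0 to 333 CPM, and in LM1_LM from 371 to 406 to 321 to 329 CPM. The log2 fold changes in these 3 lines were -0.31 ± 0.027, -0.22 ± 0.027 and -0.23 ± 0.027 (edgeR adjusted p = 1.47e-11, 2.49e-08 and 9.01e-09), and no cultures overlapped. Hk1os overlaps Hk1 on the other strand.

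Pfkp (ENSMUSG00000021196, GRCm38 chr13:6579768-6648777, minus strand), the platelet-type phosphofructokinase of the committed step, rose in MYAZ16_1e alone among the 4 lines, and the test of each difference from MYAZ16_1e stands with the responses compared below. Its level there was 165, 156 and 162 CPM in control medium and 194, 201 and 204 CPM after deprivation (log2 fold change 0.31 ± 0.029, edgeR adjusted p = 1.84e-10). Myc310 had 408, 409 and 422 CPM in control medium and 380.3, 398 and 395 CPM after deprivation (log2 fold change -0.092 ± 0.026, edgeR adjusted p = 0.00299). In LM1 the levels were 360.4 to 369 and 347 to 358 CPM, which do not overlap on the scaling over 45 libraries, but with the scaling of the 24 libraries in the model the difference did not pass (log2 fold change -0.014 ± 0.027, edgeR adjusted p = 0.659, 95% interval -0.067 to 0.038). In LM1_LM the levels were 372 to 394 and 351 to 362 CPM (log2 fold change -0.067 ± 0.027, edgeR adjusted p = 0.0252), and without culture 1 of each group the fall did not pass (log2 fold change -0.040, edgeR adjusted p = 0.238). With upper-quartile in place of TMM scaling, Pfkp also fell in LM1 (log2 fold change -0.092, edgeR adjusted p = 0.00308). Pitrm1 overlaps Pfkp on the other strand.

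Aldoa (ENSMUSG00000030695, GRCm38 chr7:126795234-126800751, minus strand), the aldolase that splits fructose 1,6-bisphosphate, fell in each line by a small amount. Its control and deprived cultures were at 1289.7 to 1321 and 1186 to 1236 CPM in MYAZ16_1e, 1553 to 1573 and 1318 to 1377 CPM in Myc310, 1577 to 1606 and 1397 to 1469 CPM in LM1, and 1695 to 1794 and 1561 to 1609.8 CPM in LM1_LM. No groups overlapped, and the log2 fold change was -0.11 ± 0.024 in MYAZ16_1e (edgeR adjusted p = 0.000151), -0.23 ± 0.024 in Myc310 (edgeR adjusted p = 5.3e-10), -0.12 ± 0.024 in LM1 (edgeR adjusted p = 2.53e-05) and -0.091 ± 0.024 in LM1_LM (edgeR adjusted p = 0.001). Fam57b overlaps Aldoa on the other strand.

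Gapdh (ENSMUSG00000057666, GRCm38 chr6:125161715-125166467, minus strand) encodes glyceraldehyde-3-phosphate dehydrogenase, the oxidation step that uses NAD and a common reference gene for normalisation. In MYAZ16_1e, Gapdh measured 2206, 2248 and 2289 CPM in control medium and 2047, 2097 and 1995 CPM after deprivation. Myc310 measured 2129, 2136 and 2122 CPM in control medium and 1633, 1609 and 1723 CPM after deprivation. The gap between the groups was wider in Myc310. LM1 measured 2071, 2048 and 2114 CPM in control medium and 1466, 1495 and 1501 CPM after deprivation. LM1_LM measured 2229, 2178 and 2127 CPM in control medium and 1539, 1566 and 1547 CPM after deprivation. The groups of each line stood apart, and the log2 fold change was -0.14 ± 0.024 in MYAZ16_1e (edgeR adjusted p = 9.47e-06), -0.38 ± 0.024 in Myc310 (edgeR adjusted p = 1.21e-14), -0.45 ± 0.024 in LM1 (edgeR adjusted p = 1.29e-16) and -0.45 ± 0.024 in LM1_LM (edgeR adjusted p = 8.2e-17). Iffo1 overlaps Gapdh on the other strand.

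Pgk1 (ENSMUSG00000062070, GRCm38 chrX:106187100-106203699, plus strand), the phosphoglycerate kinase that recovers ATP, was the least responsive of the 10 by mean absolute response over the 4 lines. In LM1 and in LM1_LM, Pfkp and Pkm moved less. In MYAZ16_1e, Pgk1 measured 1116, 1156 and 1146 CPM in control medium and 1136, 1136 and 1069 CPM after deprivation. Myc310 measured 1321, 1319 and 1304 CPM in control medium and 1279, 1255 and 1336 CPM after deprivation. The cultures overlapped in both, and neither difference passed (log2 fold change -0.039 ± 0.025, edgeR adjusted p = 0.207, 95% interval -0.089 to 0.011, and log2 fold change -0.040 ± 0.025, edgeR adjusted p = 0.165, 95% interval -0.090 to 0.0094). LM1 measured 1375, 1409 and 1401 CPM in control medium and 1441, 1451 and 1464 CPM after deprivation. LM1_LM measured 1609, 1515 and 1539 CPM in control medium and 1634, 1608 and 1619 CPM after deprivation. Pgk1 rose in LM1 and LM1_LM under TMM scaling (log2 fold changes 0.093 ± 0.025 and 0.10 ± 0.025, edgeR adjusted p = 0.00169 and 0.001), although the LM1_LM groups overlapped by 1 culture, and neither passed under upper-quartile scaling (log2 fold changes 0.015 and 0.015, edgeR adjusted p = 0.606 and 0.616). In Myc310 the difference became a fall that passed under upper-quartile scaling (log2 fold change -0.072, edgeR adjusted p = 0.0144) and without culture 3 (-0.074, edgeR adjusted p = 0.0327). The processed pseudogene Pgk1-rs7, a near copy, held 331 to 868 counts in 7 libraries, 1.72% to 2.43% of the count of Pgk1, and at most 4 counts in the other 38, and adding its counts to Pgk1 left these calls as they were. The promoter window of Pgk1 (RefSeq, GRCm38.p6, chrX:106186850-106187149, plus strand) is printed as that of a gene with 1 of the 2 smallest mean absolute responses, with ACGTG in capitals on either strand:
Pgk1: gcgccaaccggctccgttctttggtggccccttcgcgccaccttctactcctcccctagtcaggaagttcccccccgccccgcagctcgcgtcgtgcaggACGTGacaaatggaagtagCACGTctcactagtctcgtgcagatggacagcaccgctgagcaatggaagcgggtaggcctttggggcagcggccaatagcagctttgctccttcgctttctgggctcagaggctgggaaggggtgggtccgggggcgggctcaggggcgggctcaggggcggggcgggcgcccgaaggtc

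Pgam1 (ENSMUSG00000011752, GRCm38 chr19:41911923-41918660, plus strand), the phosphoglycerate mutase that moves the phosphate before the last steps, had the largest change of the 10 in each line other than MYAZ16_1e. In MYAZ16_1e, Pgam1 measured 886, 859 and 892 CPM in control medium and 619, 622 and 608 CPM after deprivation. Myc310 measured 1096, 1098 and 1111 CPM in control medium and 568, 554 and 565 CPM after deprivation. The control cultures of Myc310 were higher than those of MYAZ16_1e, and its deprived cultures lower. LM1 measured 1228, 1219.5 and 1251 CPM in control medium and 613, 611 and 621 CPM after deprivation. LM1_LM measured 1388, 1319 and 1321 CPM in control medium and 648, 675 and 662 CPM after deprivation. All 12 deprived cultures were between 554 and 675 CPM, although the controls of the 4 lines spanned 859 to 1388 CPM. The log2 fold change was -0.52 ± 0.022 in MYAZ16_1e (edgeR adjusted p = 2.91e-18), -0.98 ± 0.022 in Myc310 (edgeR adjusted p = 9.94e-26), -0.97 ± 0.022 in LM1 (edgeR adjusted p = 8.23e-26) and -0.98 ± 0.022 in LM1_LM (edgeR adjusted p = 4.38e-26). The pseudogene Pgam1-ps2 held 1.71% as many counts as Pgam1 over all libraries. The promoter window (RefSeq, GRCm38.p6, chr19:41911621-41911920, plus strand) is printed because Pgam1 had the largest mean absolute response, with ACGTG and GCGTG in capitals on either strand:
Pgam1: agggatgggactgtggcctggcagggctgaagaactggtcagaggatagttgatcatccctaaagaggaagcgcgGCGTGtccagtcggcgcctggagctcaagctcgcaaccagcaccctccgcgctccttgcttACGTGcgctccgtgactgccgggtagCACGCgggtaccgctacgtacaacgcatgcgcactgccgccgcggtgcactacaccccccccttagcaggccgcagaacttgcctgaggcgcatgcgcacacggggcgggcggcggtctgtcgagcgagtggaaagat

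Pkm (ENSMUSG00000032294, GRCm38 chr9:59656368-59679375, plus strand) encodes the muscle-type pyruvate kinase, whose splice forms M1 and M2 are summed in a count per gene. In MYAZ16_1e its level was 3555 to 3644 CPM in control and 3298 to 3408 CPM in deprived cultures, and in Myc310 4959.9 to 5026 and 4268 to 4467 CPM, falls that passed in both (log2 fold change -0.12 ± 0.022, edgeR adjusted p = 4.08e-05, and log2 fold change -0.21 ± 0.022, edgeR adjusted p = 8.18e-10). In LM1 (4975 to 5086 and 4650.0 to 4869 CPM) and LM1_LM (5064 to 5383 and 5021 to 5080.1 CPM) the differences did not pass (log2 fold change -0.047 ± 0.022, edgeR adjusted p = 0.0567, 95% interval -0.091 to -0.0041, and log2 fold change -0.0100 ± 0.022, edgeR adjusted p = 0.704, 95% interval -0.053 to 0.033). Under upper-quartile scaling both passed as falls (log2 fold changes -0.12 and -0.093, edgeR adjusted p = 1.05e-05 and 0.000466), and LM1 passed in 5 other alternatives, among them DESeq2 (log2 fold change -0.061, DESeq2 adjusted p = 0.00563) and the model without culture 3 (-0.082, edgeR adjusted p = 0.0113). Gm49759 overlaps Pkm on the same strand. The first listed of its 2 promoter windows (RefSeq, GRCm38.p6, chr9:59656326-59656625, plus strand) is printed as that of the other gene with a small mean absolute response, and it holds none of the motifs searched:
Pkm: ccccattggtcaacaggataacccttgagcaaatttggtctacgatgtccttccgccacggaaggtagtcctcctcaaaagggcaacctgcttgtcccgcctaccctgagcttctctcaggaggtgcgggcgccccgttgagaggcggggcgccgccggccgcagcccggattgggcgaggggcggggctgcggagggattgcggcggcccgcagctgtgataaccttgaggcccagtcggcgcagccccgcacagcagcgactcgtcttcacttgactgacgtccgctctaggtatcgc

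Ldha (ENSMUSG00000063229, GRCm38 chr7:46841475-46855627, plus strand), the lactate dehydrogenase subunit that turns pyruvate into lactate, had the next largest fall after Pgam1 in each line. In MYAZ16_1e, Ldha measured 1646, 1633 and 1651 CPM in control medium and 1277, 1312 and 1279.9 CPM after deprivation. Myc310 measured 2384, 2395 and 2390.5 CPM in control medium and 1514, 1501 and 1538 CPM after deprivation. The difference between Myc310 and MYAZ16_1e was wide in control medium and narrower after deprivation. LM1 measured 2436, 2452 and 2403 CPM in control medium and 1567, 1602 and 1629 CPM after deprivation. LM1_LM measured 2683, 2560.2 and 2615 CPM in control medium and 1747, 1738 and 1765 CPM after deprivation. No groups overlapped within a line, and the log2 fold change was -0.36 ± 0.020 in MYAZ16_1e (edgeR adjusted p = 2.54e-15), -0.67 ± 0.020 in Myc310 (edgeR adjusted p = 1.24e-22), -0.57 ± 0.020 in LM1 (edgeR adjusted p = 4.23e-21) and -0.54 ± 0.020 in LM1_LM (edgeR adjusted p = 1.04e-20). The first of its 2 promoter windows (RefSeq, GRCm38.p6, chr7:46845554-46845853, plus strand) is printed for the same reason as that of Pgam1, with the E-box CACGTG and both hypoxia response cores in capitals on either strand:
Ldha: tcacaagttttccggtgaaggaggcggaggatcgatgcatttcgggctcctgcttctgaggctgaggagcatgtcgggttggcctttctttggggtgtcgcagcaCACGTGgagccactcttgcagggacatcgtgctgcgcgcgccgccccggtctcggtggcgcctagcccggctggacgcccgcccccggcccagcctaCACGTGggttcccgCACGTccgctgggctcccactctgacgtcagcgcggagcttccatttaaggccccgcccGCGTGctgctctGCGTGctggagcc

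In the 15 RefSeq promoter windows of the 10 genes, 4 motifs were searched on both strands: the E-box CACGTG, bound by MYC and related factors, the hypoxia response cores ACGTG and GCGTG, and TGATGNAA, the core of the amino acid response element. A CACGTG match contains ACGTG on both strands. At least 1 window held ACGTG for 9 of the 10 genes (not Pfkp), against 30.1% of 9362 genes with a mean of 10 counts or more and a window in the table. By window, 10 of 15 (66.7%) held it, against 25.9% of the windows of those genes and 19.6% of all 32851 windows. GCGTG was in windows of 6 of the 10 genes, with 57.4% in the background, 4 of its matches in the window of Pfkp. CACGTG occurred in Ldha alone, at 145 and 48 bases before the start site, and in 12.1% of the background genes. TGATGNAA was in no window of the 10 and in 2.64% of the background genes. Genes that rose and genes that fell both held ACGTG, among them Slc2a1 at 36 bases before the start and Pgam1 at 114. These matches are a description of letters in a window, and no binding was measured.

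The second comparison tests whether the responses of Myc310, LM1 and LM1_LM differed from that of MYAZ16_1e, as interaction contrasts in the same model. They share the libraries of MYAZ16_1e and are given side by side. Relative to MYAZ16_1e, Slc2a1 responded more strongly upward and Hk1, Hk2, Pfkp, Gapdh, Pgam1 and Ldha responded lower in each of the 3 lines. For Hk2 the difference was -0.45 ± 0.044, -0.40 ± 0.045 and -0.45 ± 0.045 on the log2 scale in Myc310, LM1 and LM1_LM (edgeR adjusted p = 1.79e-09, 9.26e-09 and 6.68e-10). Pgam1 differed by -0.47 ± 0.032, -0.45 ± 0.031 and -0.47 ± 0.031 (edgeR adjusted p = 8.61e-13, 3.65e-13 and 1.27e-13). The lower response of Hk2 was a smaller rise, and that of Pgam1 a larger fall. Slc2a1 differed by 0.27 ± 0.043, 0.39 ± 0.043 and 0.29 ± 0.043 (edgeR adjusted p = 4.98e-06, 4.09e-09 and 1.07e-06). Pfkp differed by -0.40 ± 0.039, -0.32 ± 0.039 and -0.37 ± 0.039 (edgeR adjusted p = 1.47e-09, 4.07e-08 and 1.67e-09). Of the 10 genes, 9 differed in Myc310 (1 up, 8 down), 8 in LM1 (2 and 6) and 9 in LM1_LM (3 and 6), against 40.3% of all genes (19.8% higher and 20.4% lower), 52.2% (26.9% and 25.3%) and 54.8% (28.4% and 26.4%). Upper-quartile scaling moved the share of higher responses among all calls from 51.5% to 41.0% (LM1) and from 51.7% to 41.6% (LM1_LM), and with it Pgk1 in both and Pkm in LM1_LM no longer passed, while Aldoa in LM1 did (log2 differences 0.051, 0.051, 0.022 and -0.091). Some of the smaller calls were lost when 1 culture number was left out of all 8 groups. Aldoa in Myc310 did not pass without number 1 or 2 (-0.086 and -0.10), nor did Pkm in Myc310 or LM1_LM without number 2 (-0.076 and 0.10) or Pgk1 in LM1 or LM1_LM without number 3 (0.092 and 0.10). Pkm in LM1 passed without number 1 (0.089, edgeR adjusted p = 0.027).

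The other genes of glycolysis and lactate handling were read from a list of 32, of which 29 are in the table and 20 passed the filter on low counts. In the order MYAZ16_1e, Myc310, LM1 and LM1_LM, 4, 4, 4 and 4 of the 20 rose after deprivation and 8, 13, 13 and 13 fell, with median log2 fold changes of -0.20, -0.42, -0.35 and -0.46. Over all genes 26.6%, 32.8%, 35.8% and 36.5% rose and 27.1%, 33.9%, 35.3% and 35.9% fell, which is the background of each list count after deprivation. Genes of this and the next lists are ranked among those that passed without overlapping cultures. The 2 largest rises in every line were Eno2, a neuronal-type enolase (log2 fold changes 0.37 ± 0.12, 1.36 ± 0.10, 1.55 ± 0.11 and 1.52 ± 0.10), and Pfkfb4, which controls the activator of phosphofructokinase (0.39 ± 0.086, 1.08 ± 0.085, 1.44 ± 0.10 and 1.60 ± 0.093). The lactate exporter Slc16a3, or MCT4, fell by 0.78 ± 0.037, 1.31 ± 0.051, 1.73 ± 0.042 and 1.90 ± 0.040 on the log2 scale, from means of 205 to 120.3 CPM in MYAZ16_1e and of 218 to 57.2 CPM in LM1_LM. Slc16a1, or MCT1, fell by 0.50 ± 0.025 in MYAZ16_1e, where it was next to Slc16a3. The transporter Slc2a3 fell in Myc310, LM1 and LM1_LM, by 1.64 ± 0.50, 1.45 ± 0.16 and 1.91 ± 0.13, from mean levels of only 0.438, 8.62 and 27.7 CPM, and Slc2a6 fell in Myc310 by 1.37 ± 0.41 from 1.13 CPM. Of the steps that the 10 genes skip, Gpi1, glucose phosphate isomerase, had log2 fold changes of -0.053, -0.30, -0.30 and -0.28, of which the first did not pass (edgeR adjusted p = 0.0614). Tpi1, triose phosphate isomerase, fell in all 4 lines (-0.21, -0.23, -0.18 and -0.19), as did the main enolase Eno1 (-0.090, -0.22, -0.18 and -0.14) and the liver-type phosphofructokinase Pfkl (-0.24, -0.62, -0.74 and -0.82). The Eno1 cultures of MYAZ16_1e overlapped.

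**Figure D3:**
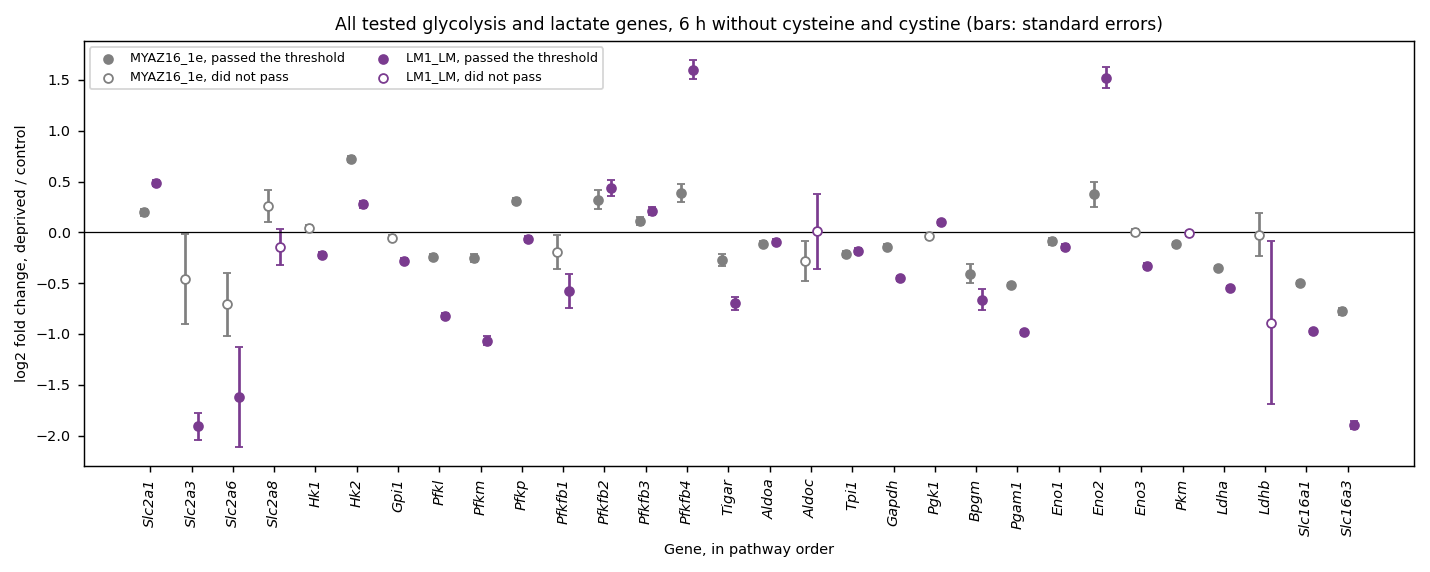
Response to 6 h without cysteine and cystine (y axis, log2 fold change) of the 10 genes and the 20 other tested genes of glycolysis and lactate handling, in pathway order on the x axis, for MYAZ16_1e (grey) and LM1_LM (purple), with bars of 1 standard error and open circles where edgeR's adjusted p was 0.05 or more. Slc2a3 and Slc16a3 lie lowest in LM1_LM, at -1.91 and -1.90, and Eno2 and Pfkfb4 highest, at 1.52 and 1.60.

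Around the pathway, the 14 genes of pyruvate entry into mitochondria split in each line, with 4, 6, 6 and 6 higher and 3, 5, 6 and 7 lower in the same order of lines. Dld, the shared dehydrogenase subunit of pyruvate dehydrogenase, rose most (log2 fold changes 0.61 ± 0.029, 1.13 ± 0.028, 1.25 ± 0.028 and 1.29 ± 0.028), followed by Pdhb (0.47, 0.34, 0.57 and 0.49). Pdp2, a phosphatase that activates pyruvate dehydrogenase, fell most (-0.92 ± 0.086, -1.43 ± 0.099, -1.55 ± 0.10 and -1.33 ± 0.099), followed by Pdk3 in MYAZ16_1e (-0.17), Pdk1 in Myc310 and LM1_LM (-0.61 and -1.12) and Pdk2 in LM1 (-1.29, from 1.16 CPM), kinases that inhibit it. Of 3 gluconeogenesis genes tested, the mitochondrial Pck2 rose in all 4 lines (2.49 ± 0.028, 2.83 ± 0.027, 3.26 ± 0.028 and 3.33 ± 0.028), and Fbp2 fell in Myc310, LM1 and LM1_LM (-0.86, -0.75 and -0.72). G6pc3 also fell in LM1 (-0.19).

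Among 11 tested regulators of glycolysis genes, 5, 5, 4 and 4 rose and 3, 5, 6 and 5 fell, where 26.6% to 36.5% of all genes rose and 27.1% to 35.9% fell. Hif1a mRNA rose in all 4 lines (log2 fold changes 0.80 ± 0.026, 1.07 ± 0.026, 1.29 ± 0.026 and 1.38 ± 0.026), as did Txnip, which restrains glucose uptake (1.13 ± 0.040, 1.06 ± 0.037, 1.36 ± 0.037 and 1.61 ± 0.037), and its relative Arrdc4 (1.38 ± 0.066, 2.19 ± 0.070, 2.31 ± 0.072 and 2.59 ± 0.069). Myc was unlike these: its log2 fold change was 0.057 ± 0.035 in MYAZ16_1e, where it did not pass (edgeR adjusted p = 0.177), and it fell by 0.32 ± 0.034 in Myc310, 0.88 ± 0.034 in LM1 and 1.26 ± 0.035 in LM1_LM, where its mean went from 1074 to 438 CPM. Reads of the transgene may be part of that count, and their share was not tested. Egln1, a hydroxylase that marks HIF proteins for destruction, fell in each line (-0.38, -0.55, -0.89 and -1.03), and Mlxip was among the 2 largest falls in MYAZ16_1e and Myc310 (-0.26 and -0.79). The 13 tested HIF targets outside glycolysis did not move one way, with 5, 5, 6 and 5 higher and 3, 3, 5 and 4 lower. Vegfa (1.95 ± 0.041, 2.71 ± 0.048, 2.70 ± 0.052 and 2.70 ± 0.049) and Ndrg1 (2.18 ± 0.070, 3.27 ± 0.073, 4.11 ± 0.078 and 3.95 ± 0.073) rose most and, among genes that passed, Egln3 fell most (-0.55 ± 0.050, -0.92 ± 0.045, -1.52 ± 0.050 and -1.69 ± 0.050), followed by Higd1a in MYAZ16_1e (-0.23), Mxi1 in Myc310 and LM1_LM (-0.59 and -0.87) and Car9 in LM1 (from 1.75 to 0.846 CPM). The lists were chosen with earlier results of these data known.

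Against MYAZ16_1e, the responses of these lists differed as follows, as edgeR interaction contrasts in Myc310, LM1 and LM1_LM. Of the 20 other glycolysis and lactate genes, 3, 4 and 2 responded higher and 10, 8 and 8 lower. Over all genes these shares were 19.8%, 26.9% and 28.4% higher and 20.4%, 25.3% and 26.4% lower, which is the background of the other lists too. Eno2 (0.98, 1.17 and 1.15) and Pfkfb4 (0.70, 1.05 and 1.22) differed most upward on the log2 scale. Among genes that passed, most downward were Aldoc and Pfkm in Myc310 (-0.79 and -0.54), Slc16a3 and Pfkm in LM1 (-0.95 and -0.72), and Slc2a3 and Slc16a3 in LM1_LM (-1.45 and -1.12). The pyruvate genes had 2, 2 and 4 higher and 6, 5 and 7 lower responses, the regulators 3, 4 and 4 higher and as many lower, and the HIF targets outside glycolysis 5, 6 and 5 higher and 2, 2 and 4 lower. Hif1a responded more (0.27, 0.49 and 0.58) and Myc lower (-0.38, -0.94 and -1.31) in each of the 3 lines.

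The third comparison sets the lines in control medium against each other by metastatic history: MYAZ, Myc310, LM and LM_LM. Most of the 10 genes were higher in Myc310, LM and LM_LM than in MYAZ, above all Pfkp, at 2.48 to 2.58 times. Slc2a1, Hk1, Hk2, Pgk1 and Ldha were 1.35 to 1.75 times higher. Pgam1 and Aldoa were also higher, by log2 fold changes of 0.34 to 0.58 and 0.18 to 0.39, and Gapdh and Pkm lay closest to MYAZ. The model with subtype only (30 libraries, 13795 genes) called 8 of the 10 higher in Myc310, 10 in LM and 9 in LM_LM, and none lower. Over all genes, 50.9% passed in Myc310 (23.8% higher and 27.1% lower), 60.8% in LM (30.3% and 30.5%) and 62.8% in LM_LM (30.5% and 32.3%). The median log2 fold change of the 10 genes was 0.55, 0.50 and 0.61, beside medians of all genes between -0.019 and 0.0023. Cultures of 1 line enter this model as if independent, and its libraries of MYAZ16_1e, Myc310, LM1 and LM1_LM are also the controls of the comparisons above. With counts summed per line, 4 of the 10 passed in Myc310, 8 in LM and 8 in LM_LM, while the shares over all genes were 8.92%, 23.6% and 26.4%. Myc310 is 1 line, so that its difference from MYAZ cannot be told apart from a difference of that line, and the LM and LM_LM lines descend from it.

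**Figure D4:**
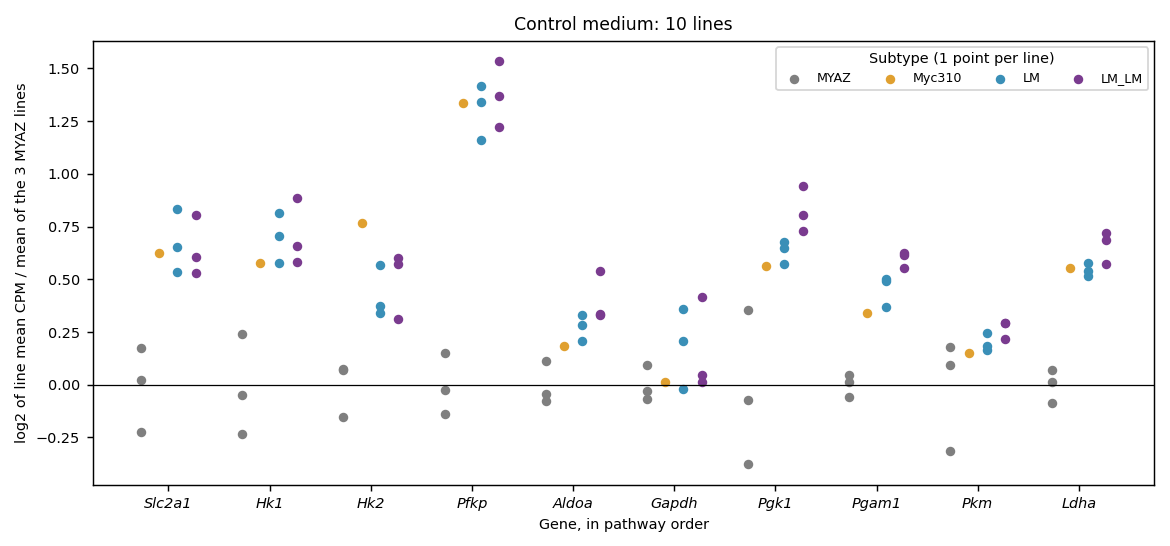
Level of the 10 genes in control medium for each of 10 lines (points, means of 3 cultures), as log2 of its ratio to the mean of the 3 MYAZ lines (y axis) by gene in pathway order (x axis), for MYAZ (grey), Myc310 (orange), LM (blue) and LM_LM (purple). The points of Myc310, LM and LM_LM lie above all MYAZ points for Slc2a1, Hk1, Hk2, Pfkp, Aldoa, Pgk1, Pgam1 and Ldha, and mix with them for Gapdh and, in Myc310 and LM, for Pkm.

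Pfkp levels in control cultures fell into 2 ranges. MYAZ16_1e had 165, 156 and 162 CPM, MYAZ12_3i 151, 150.0 and 145 CPM and MYAZ6_6g 188, 176 and 180.2 CPM. Myc310 had 408, 409 and 422 CPM. LM1 had 369, 367 and 360.4 CPM, LM2 437, 430.4 and 442 CPM and LM3 414, 417 and 414 CPM. The highest MYAZ culture, at 188 CPM, was far below the lowest culture of the other lines, at 360.4 CPM. LM1_LM had 394, 381 and 372 CPM, LM2_LM 480.2, 463 and 480.1 CPM and LM3_LM 417, 420.4 and 432 CPM. In descending order of means the lines were LM2_LM, LM2, LM3_LM, LM3, Myc310, LM1_LM, LM1, MYAZ6_6g, MYAZ16_1e, MYAZ12_3i_NDI1 and MYAZ12_3i, of which the neighbours LM2 and LM3_LM, LM3 and Myc310, and MYAZ16_1e and MYAZ12_3i_NDI1 had overlapping cultures. The log2 fold change from MYAZ was 1.33 ± 0.079 in Myc310 (edgeR adjusted p = 2.51e-14), 1.31 ± 0.060 in LM (edgeR adjusted p = 2.42e-17) and 1.36 ± 0.060 in LM_LM (edgeR adjusted p = 9.11e-18), and with counts summed per line it was 1.35, 1.33 and 1.39 (edgeR adjusted p = 0.00236, 0.000277 and 0.000222). An exact permutation test on line means (3 against 3, two-sided) gave p = 0.1 for LM and for LM_LM, the smallest p this design allows. The LM and LM_LM lines all descend from Myc310, so that neither test here has independent lines on that side.

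At the entry of the pathway, mean levels over lines (± SD, n = 3 lines, and 1 line for Myc310) of Slc2a1 were 190.1 ± 26.0 CPM in MYAZ, 293 CPM in Myc310, 304 ± 31.9 CPM in LM and 299 ± 30.1 CPM in LM_LM, and of Hk1 259 ± 43.3 CPM in MYAZ, 387 CPM in Myc310, 422 ± 34.5 CPM in LM and 425 ± 47.0 CPM in LM_LM. Hk2 was at 155 ± 13.6 CPM in MYAZ, 265 CPM in Myc310, 209 ± 18.3 CPM in LM and 219.8 ± 23.3 CPM in LM_LM, with Myc310 above all other lines. The log2 fold change from MYAZ of Slc2a1 was 0.62 ± 0.093 in Myc310 (edgeR adjusted p = 2.43e-06), 0.68 ± 0.068 in LM (edgeR adjusted p = 7.81e-10) and 0.64 ± 0.068 in LM_LM (edgeR adjusted p = 2.88e-09). Hk1 gave 0.58, 0.70 and 0.70, and Hk2 gave 0.76, 0.43 and 0.48 in the same order (edgeR adjusted p at most 1.62e-05). With counts summed per line, Slc2a1 and Hk1 no longer passed in Myc310 (edgeR adjusted p = 0.0608 and 0.0918), and Hk2 did (edgeR adjusted p = 0.018).

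In the lower part of the pathway, Pgk1 was at 890.3 ± 230.3 CPM in MYAZ, 1314 CPM in Myc310, 1381 ± 49.9 CPM in LM and 1580.1 ± 120.1 CPM in LM_LM, with log2 fold changes of 0.56 ± 0.12 in Myc310 (edgeR adjusted p = 0.000196), 0.64 ± 0.085 in LM (edgeR adjusted p = 1.8e-07) and 0.81 ± 0.085 in LM_LM (edgeR adjusted p = 1.84e-09). MYAZ16_1e, at 1139 CPM, was well above the other MYAZ lines for this gene. Pgam1 was at 870.2 ± 32.1 CPM in MYAZ, 1102 CPM in Myc310, 1194 ± 60.0 CPM in LM and 1319 ± 35.1 CPM in LM_LM (log2 fold changes 0.34, 0.46 and 0.58), and Ldha at 1626 ± 89.8 CPM in MYAZ, 2390.0 CPM in Myc310, 2372 ± 54.5 CPM in LM and 2571 ± 135 CPM in LM_LM (log2 fold changes 0.55, 0.55 and 0.64). Both passed in all 3 comparisons also with counts summed per line, whereas Pgk1 in Myc310 did not (edgeR adjusted p = 0.141). Aldoa was at 1378 ± 100.0 CPM in MYAZ, 1566 CPM in Myc310, 1668 ± 69.9 CPM in LM and 1826 ± 154 CPM in LM_LM, with log2 fold changes of 0.18, 0.28 and 0.39. Its call in Myc310 did not pass with limma's voom and the line as a random block (limma adjusted p = 0.0896), without culture number 1 or 2 of every line (log2 fold changes 0.18 and 0.19, edgeR adjusted p = 0.071 and 0.051) or with counts summed per line (0.339). For Slc2a1, Hk1, Hk2, Aldoa, Pgk1, Pgam1 and Ldha the 3 LM lines and the 3 LM_LM lines all lay above the 3 MYAZ lines, with an exact permutation p of 0.1 (two-sided, the smallest possible).

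Pkm and Gapdh were the exceptions. Pkm was at 4492 ± 779.8 CPM in MYAZ, 4994 CPM in Myc310, 5159 ± 150.1 CPM in LM and 5404 ± 165 CPM in LM_LM, with log2 fold changes of 0.15 ± 0.086 in Myc310 (edgeR adjusted p = 0.152), 0.20 ± 0.061 in LM (edgeR adjusted p = 0.00549) and 0.25 ± 0.061 in LM_LM (edgeR adjusted p = 0.000794). MYAZ16_1e, at 3607.5 CPM, was well below the other lines, which began at 4791 CPM. Without it the difference in LM did not pass (log2 fold change 0.063, edgeR adjusted p = 0.0583), and without MYAZ12_3i that in Myc310 did (0.25, edgeR adjusted p = 0.0116). Over all alternatives the log2 fold change of Pkm ran from 0.011 to 0.25 in Myc310, 0.063 to 0.30 in LM and 0.11 to 0.35 in LM_LM. With counts summed per line neither LM nor LM_LM passed (edgeR adjusted p = 0.226 and 0.134), and the exact permutation p on line means was 0.2 for LM and 0.1 for LM_LM. Gapdh was at 2109 ± 123 CPM in MYAZ, 2129 CPM in Myc310, 2406 ± 315 CPM in LM and 2373 ± 382 CPM in LM_LM, with log2 fold changes of 0.0089 ± 0.10 in Myc310 (edgeR adjusted p = 0.952), 0.19 ± 0.073 in LM (edgeR adjusted p = 0.0228) and 0.15 ± 0.073 in LM_LM (edgeR adjusted p = 0.0668). LM2, LM3 and LM3_LM, at 2434 to 2813 CPM, stood above all other lines, and the other Myc310-derived lines lay among the MYAZ lines. The call of Gapdh in LM was lost with counts summed per line (edgeR adjusted p = 0.323), with limma's voom and the line as a random block (limma adjusted p = 0.0733), without any one culture number, and without MYAZ12_3i, MYAZ6_6g, LM2 or LM3 (log2 fold changes 0.16, 0.18, 0.093 and 0.18). In LM_LM Gapdh passed without MYAZ16_1e, LM1_LM or LM2_LM (log2 fold changes 0.20, 0.21 and 0.23). Over all alternatives its log2 fold change in LM_LM ran from 0.0048 to 0.23. LM1_LM and LM2_LM were at 2178 and 2127 CPM, and LM3_LM at 2813 CPM. The exact permutation p for Gapdh was 0.2 in LM and 0.4 in LM_LM.

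The later steps of the series differed little. Between LM and Myc310, 1 of the 10 genes passed, Hk2, which was lower in LM (log2 fold change -0.33 ± 0.079, edgeR adjusted p = 0.00896), against 4.94% of all genes (3.43% higher and 1.51% lower). Myc310 held 265, 265 and 264 CPM of Hk2, and the 9 LM cultures held 195 to 234 CPM, so that no cultures overlapped. The call did not pass with counts summed per line, with limma's voom and the line as a random block (limma adjusted p = 0.24) or without any one culture number, with log2 fold changes of -0.34 to -0.33 without a culture number. With summed counts Myc310 is 1 sample. In the other settings few genes passed at all, 37 of 13795 with voom and 188 to 203 without a culture number. The other 9 had log2 fold changes between -0.019 and 0.18, of which Pgam1 came nearest to the threshold (0.12 ± 0.037, edgeR adjusted p = 0.0526). Without LM1, or without LM2, 2 of the 10 genes passed, against 10.9% and 4.86% of all genes. Between LM_LM and LM, Pgam1 passed (log2 fold change 0.13 ± 0.026, edgeR adjusted p = 0.0183), against 0.768% of all genes (0.268% higher and 0.500% lower). Its cultures were at 1113 to 1251 CPM in LM and 1266 to 1388 CPM in LM_LM. It did not pass without LM2, LM1_LM or LM2_LM (log2 fold changes 0.086, 0.11 and 0.12) or with counts summed per line or voom (adjusted p = 1 by edgeR and 1 by limma), or without any one culture number (edgeR adjusted p = 0.355 to 0.46). With summed counts, with voom and without any one culture number, 0 of all genes passed. Without LM2, LM1_LM or LM2_LM, 30, 159 and 18 of all genes passed. Without LM3_LM 4 of the 10 genes passed, against 15% of all genes. The other 9 lay between -0.046 and 0.17.

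Lines of the same subtype differed from each other for nearly all of these genes. An F test over the 3 lines in edgeR's model with 1 mean per line passed for 10 of the 10 in MYAZ, for 9 in LM (not Ldha, adjusted p = 0.348) and for 9 in LM_LM (not Pgam1, adjusted p = 0.0793). Over all genes 74.0%, 61.9% and 68.2% passed. Within MYAZ, Pgk1 spread most, from 685 CPM in MYAZ12_3i to 1139 CPM in MYAZ16_1e (1.66-fold), followed by Pkm (1.41-fold, MYAZ12_3i over MYAZ16_1e). In LM and in LM_LM, Gapdh spread most, 1.30-fold with LM2 over LM1 and 1.32-fold with LM3_LM over LM2_LM. LM1 was the lowest LM line for Slc2a1, Hk1, Hk2, Pfkp, Aldoa, Gapdh and Pkm, and LM1_LM the lowest LM_LM line for Slc2a1, Hk1, Hk2, Pfkp, Aldoa and Pkm.

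Of the other glycolysis and lactate genes in control medium, 22 were tested, and 5, 11 and 11 were higher and 5, 7 and 5 lower than in MYAZ in Myc310, LM and LM_LM. Of all genes, 23.8%, 30.3% and 30.5% were higher and 27.1%, 30.5% and 32.3% lower, which is also the background of the other list counts in these comparisons. Gpi1 was higher in all 3 (log2 fold changes 0.75 ± 0.038, 0.77 ± 0.028 and 0.83 ± 0.028) with no overlap. Eno1 (0.12, 0.14 and -0.10) did not pass in any, Tpi1 (0.10, 0.21 and 0.25) passed in LM and LM_LM, and Pfkl (-0.038, -0.029 and 0.13) in LM_LM, all with overlapping cultures. The other large differences were Eno2 in Myc310 (0.59), Slc2a3 in LM (9.65 CPM against 1.07 CPM in MYAZ), Pfkfb2 in LM_LM (0.81), and, lower than in MYAZ, Ldhb (10.2 CPM in MYAZ and 0.0755, 0.316 and 0.325 CPM in Myc310, LM and LM_LM), Aldoc in LM (-1.95) and Slc2a4, which was under 1 CPM on average in each subtype. The 14 pyruvate genes had 8 higher in each and 5, 4 and 4 lower. Pcx, pyruvate carboxylase, was higher in all 3 (1.53, 1.62 and 1.19), Pdp1 in Myc310 and LM (0.96 and 0.72) and Dlat in LM_LM (0.77), while Pdk4 (15.8 CPM in MYAZ and 0.236, 1.98 and 2.31 CPM in the others), Pdk2 in LM and LM_LM (-1.83 and -2.28) and Pdp2 in Myc310 (-0.69) were lower. Fbp2 averaged 52.7, 16.5 and 64.2 CPM in Myc310, LM and LM_LM and 0.00487 CPM in MYAZ, and G6pc3 was also higher (0.83, 0.83 and 0.72). Pck2, the third gluconeogenesis gene tested, was lower in all 3 (-0.65, -0.77 and -0.95), with overlapping cultures.

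Of 11 regulators tested in control medium, 5, 6 and 6 were higher and 2, 2 and 3 lower. Myc (1.33, 0.91 and 0.87), Txnip (1.18, 1.08 and 0.83) and Hif1a (0.30, 0.30 and 0.33) were higher in all 3 comparisons with no overlap, and Arnt was lower (-0.35, -0.41 and -0.35), as was Epas1 in Myc310 (-1.35). The 13 HIF targets outside glycolysis had 7, 8 and 9 higher and 3, 2 and 2 lower, with Car9 (3.14, 2.92 and 2.78, from 0.293 CPM), Egln3 in Myc310 and LM (1.08 and 0.93) and Bnip3 in LM_LM (1.17) at the top and Vegfa (-1.33, -1.17 and -0.90) and, in Myc310, Ndrg1 (-1.04) at the bottom. Between LM and Myc310, Slc16a3 was higher in LM (1.43), as was Slc2a3 (9.65 CPM against 0.438 CPM), Ankrd37 was higher (0.65) and Fbp2 lower (-1.68). Myc310 is 1 line, and its cultures enter as if independent. Of all genes 4.94% passed here, but only 37 of 13795 with voom and lines as random blocks. Between LM_LM and LM, Slc16a3 was the one gene that passed in the list of other glycolysis and lactate genes (0.50 ± 0.080, edgeR adjusted p = 0.004). Fbp2 (1.94) and the HIF targets Bnip3 (0.34) and Higd1a (0.22) were also higher, with overlapping cultures. None of these 4 passed with counts summed per line, with voom and lines as random blocks or without any one culture number. In those settings 0 of all genes passed, so that they cannot tell these 4 from other genes.

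The last comparison sets MYAZ12_3i_NDI1 against MYAZ12_3i in control medium (3 cultures each, 12841 genes). Slc2a1 was the member that differed most, at 159, 165 and 164 CPM in MYAZ12_3i and 186, 197 and 184 CPM in MYAZ12_3i_NDI1 (log2 fold change 0.22 ± 0.032, edgeR adjusted p = 0.000378). Hk2 was also higher, at 164, 161 and 163 CPM in MYAZ12_3i and 179, 181 and 175 CPM in MYAZ12_3i_NDI1 (0.13 ± 0.029, edgeR adjusted p = 0.00677). Neither pair overlapped. Pgk1 was higher (0.10 ± 0.032, edgeR adjusted p = 0.0424) and Pkm lower (-0.087 ± 0.027, edgeR adjusted p = 0.0398), close to the threshold. So 4 of the 10 genes passed (3 higher and 1 lower), against 17.4% of all genes (8.14% higher and 9.27% lower). Without culture 1, or without culture 2, of both lines only Slc2a1 passed, against 6.94% and 8.04% of all genes, and without MYAZ12_3i culture 2 alone 2 genes passed, against 11.3% of all genes. Pgk1 did not pass with the counts of its named pseudogenes added (log2 fold change 0.091, edgeR adjusted p = 0.0651), MYAZ12_3i culture 1 being 1 of the 7 libraries with Pgk1-rs7 counts. The other 6 genes had log2 fold changes between -0.040 and 0.082. Of the other glycolysis and lactate genes, Pfkm (0.32) and Eno2 (0.43) were higher and Slc16a3 (-0.20) and Pfkl (-0.11) lower, while Eno1, Tpi1 and Gpi1 (-0.034, 0.069 and -0.0076) did not pass. Of 11 regulators, Hif1a (-0.17) and Myc (-0.13) were lower and Arrdc4 (0.36) and Vhl (0.21) higher, while Txnip (0.10) did not pass. Of 13 HIF targets outside glycolysis, Ndrg1 (0.28), Bnip3 (0.24) and Vegfa (0.24) were higher and Bnip3l (-0.20) and P4ha1 (-0.11) lower, and of 14 pyruvate genes Pdk1 was lower (-0.19).

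To compare levels between genes, CPM were divided by the length of all annotated exons of the gene (GENCODE M21), as means over the 10 lines without NDI1 in control medium. On this scale Pkm was highest, at 1003 ± 109 CPM per kb (SD over 10 lines), followed by Ldha at 668 ± 127. Pgk1 (574 ± 141), Pgam1 (568 ± 97.1), Aldoa (556 ± 71.5) and Gapdh (551 ± 67.7) were within 1 SD of each other. Slc2a1 followed at 76.2 ± 16.7, then Hk1 at 43.4 ± 9.95, Hk2 at 33.8 ± 6.54 and Pfkp at 25.4 ± 9.36 CPM per kb. With the median transcript length as divisor, Pkm was again first and Gapdh second, and Slc2a1, Hk1, Hk2 and Pfkp were again the lowest, but the gap below the other 6 genes nearly closed, with Pgk1 at 729.6 and Hk1 at 558 CPM per kb, so that the distances and the order within each set depend on the length taken.

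Across the 15 combinations of line and condition, the genes did not share one pattern. Pearson's r of log2 CPM was 0.92 between Pgam1 and Ldha and 0.91 between Aldoa and Ldha, and -0.14 between Slc2a1 and Pgam1. The 15 points share lines and scaling, and r is given as a description. The 5 genes whose pattern was most like the mean of the 10 (14096 genes compared, 15 group means) were Gpi1 (r = 0.988), Smyd4 (0.978), Coro7 (0.975), Mmp1b (0.971) and Nudt10 (0.968). Gpi1, itself an enzyme of the pathway, ran from 510 to 1005 CPM over the groups, and Mmp1b and Nudt10 reached at most 1.74 and 9.40 CPM.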

How the data were processed

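RNA was measured by polyA-selected, stranded, paired-end sequencing (NEBNext Ultra II Directional) in 45 libraries. The deposited values are expected counts per gene, estimated by the authors with RSEM from reads aligned with STAR in an nf-core pipeline, and they are whole numbers in the table. The submitters' processing notes name GRCm38, R 4.2.2 and DESeq2 1.38.3. The annotation release and the strand setting of the counting are not given in the sources used here, so reads of genes on opposite strands may not have been told apart. Identifiers matched GENCODE M21 (GRCm38) for 28407 of 28454 genes, and the others held 0.0106% of counts.

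Groups, lines and treatments were read from the sample labels. Counts were scaled by TMM, filtered with filterByExpr and tested with edgeR 4.0.16 (R 4.3.3) by quasi-likelihood tests, two-sided, with Benjamini-Hochberg adjustment over all genes kept and a threshold of 0.05. The deprivation model held 24 libraries in 8 groups and gave the responses and their differences from MYAZ16_1e, the subtype model held 30 control libraries in 4 subtypes, another model gave 1 mean to each of 10 lines, and the last compared the 6 libraries of MYAZ12_3i_NDI1 and MYAZ12_3i. Standard errors (±) are the log2 fold change over the square root of F, and 95% intervals are 1.96 standard errors to each side. CPM for display were scaled over all 45 libraries, so that a ratio of CPM can differ slightly from a fitted fold change, and correlations used log2 CPM with a prior count of 2. Line means were compared by exact permutation tests. The scripts were tested on simulated counts with known changes. Alternatives were RLE and upper-quartile scaling, no filter beyond 1 count or at least 10 counts in every library, DESeq2 1.42.0, limma 3.58.1 (voom, lines as random blocks), counts summed per line, only the lines compared, a replicate block, and each culture number left out. In the subtype model each line other than Myc310 was also left out in turn. The single libraries left out were MYAZ16_1e Control culture 3 in the deprivation model and MYAZ12_3i Control culture 2 in the comparison with MYAZ12_3i_NDI1. Adding the counts of named pseudogene copies to a gene was chosen after seeing the data.

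The 10 genes were chosen by name, and they and the gene lists were chosen with earlier results of these data known. From each list the 2 largest rises and the 2 largest falls without overlapping cultures are named per comparison, with Gpi1, Tpi1, Eno1, Pfkl, Myc, Hif1a and Txnip always named, and other list genes named beside these were chosen after their values were seen. Promoter windows were printed for the 2 genes with the largest and the 2 with the smallest mean absolute response, and those of Slc2a1 and Hk2 were added after their values were seen. Each library held 19517859 to 29019988 counts, no 2 cultures of a group agreed within sampling noise, and the labels give no sequencing batch. The library names of MYAZ16_1e Control culture 3 and MYAZ12_3i Control culture 2 are numbered apart from those of the other cultures of their groups. What this reflects was not tested.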

Additional observations from a re-analysis of the deposited data

Results flagged for a closer look

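For 26 of the 30 pairs of gene and line, the response to deprivation differed from that of MYAZ16_1e by edgeR's interaction contrast at an adjusted p under 0.05. The differences are in log2 units, the response of the line minus that of MYAZ16_1e, and all 3 lines are set against the same libraries of MYAZ16_1e. In Myc310 they were Slc2a1 (0.27), Hk1 (-0.35), Hk2 (-0.45), Pfkp (-0.40), Aldoa (-0.12), Gapdh (-0.24), Pgam1 (-0.47), Pkm (-0.094) and Ldha (-0.31). In LM1 they were Slc2a1 (0.39), Hk1 (-0.26), Hk2 (-0.40), Pfkp (-0.32), Gapdh (-0.31), Pgk1 (0.13), Pgam1 (-0.45) and Ldha (-0.21). In LM1_LM they were Slc2a1 (0.29), Hk1 (-0.27), Hk2 (-0.45), Pfkp (-0.37), Gapdh (-0.31), Pgk1 (0.14), Pgam1 (-0.47), Pkm (0.11) and Ldha (-0.19). Of all genes tested, 40.3%, 52.2% and 54.8% differed in the same contrasts. With 3 cultures per line and condition, no group was large enough to be tested for single outlying cultures.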

How the results depend on the processing

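Of 1703 values of single genes recomputed under an alternative, 1612 kept their direction and their side of the threshold, 55 kept the direction but no longer passed, 19 newly passed and 17 changed sign. Slc2a1 and Hk2 kept their rise and Aldoa, Gapdh, Pgam1 and Ldha their fall in all 4 lines under every scaling, filter and tool run. The sign changes, in log2 units, were all of values that did not pass the threshold as reported. In the deprivation response they were Pfkp in LM1 (0.0096, without one replicate -0.042 to 0.0096) and Pkm in LM1_LM (0.0040, without one replicate -0.031 to 0.0040), both without replicate 1. In the difference from MYAZ16_1e, Pgk1 in Myc310 changed sign with RLE scaling (0.0063), no filter (0.0027), DESeq2 (0.0065), copies added (0.019), only the lines compared (0.00084), and without replicate 1 (0.039) or 2 (0.029, and -0.062 without 3). Aldoa did so in LM1 with no filter (0.0019) and without replicate 1 (0.029), and in LM1_LM with upper-quartile scaling (-0.063) and without replicate 3 (-0.0027, up to 0.069 without 1), and Pkm in LM1 with upper-quartile scaling (-0.0100). Between Myc310 and MYAZ, Gapdh changed sign with the filter of 10 counts (-0.0096) and without MYAZ12_3i (-0.023) or MYAZ6_6g (-0.0071). The cause was not tested.

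Of 209 counts of genes called, 184 stayed within 1.5 times the reported count. With counts summed per line, 4 genes passed between Myc310 and MYAZ in place of 8, with 4 libraries for 2 subtypes and 10 in all. Between LM and Myc310 (1 reported), 2 passed with DESeq2, with only the 2 subtypes and without LM1 or LM2 (7.14%, 10.1%, 10.9% and 4.86% of all genes, 4.94% as reported), and 0 with summed counts (edgeR, 0 at unadjusted p under 0.05), with limma's voom (1 unadjusted) and without any one replicate (edgeR, range 0 to 0, 2 unadjusted each), where 0.0125%, 0.268% and 1.36% to 1.47% of all genes passed. Between LM_LM and LM (1 reported), 2 passed with DESeq2 and with only the 2 subtypes (1.83% and 0.484% of all genes, 0.768% as reported), 4 without LM3_LM (15%), and 0 with summed counts (edgeR, 0 unadjusted), voom (3 unadjusted), no filter (edgeR, 4 unadjusted), without LM2, LM1_LM or LM2_LM (edgeR, 4, 5 and 2 unadjusted) and without any one replicate (edgeR, range 0 to 0, 2 to 3 unadjusted). Of all genes, 0% then passed with summed counts, with voom and without any one replicate, 0.252% with no filter, and 0.219%, 1.16% and 0.131% without LM2, LM1_LM or LM2_LM. For MYAZ12_3i_NDI1 (4 reported), 1 passed without replicate 1 or 2 and 2 without MYAZ12_3i Control replicate 2 (6.94%, 8.04% and 11.3% of all genes, 17.4% as reported).

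Culture numbers are shared between groups but mark no common origin, and deviations of same-numbered cultures correlated between -0.053 and 0.045 within the 4 deprived lines, so the numbers were not taken as pairs. With the replicate block, 5 genes passed for MYAZ12_3i_NDI1 in place of 4 (17.5% of all genes in place of 17.4%), the other counts stayed as reported, and Pgam1, for example, changed by -0.98 in LM1_LM. Depth limits none of the 10 genes, and the number of lines limits the comparisons between subtypes.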

Other observations

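Pgk1-rs7 counts were far apart between libraries. The 7 libraries with 331 to 868 counts were MYAZ16_1e Control 3, MYAZ12_3i Control 1, Myc310 Cys deprived 1, LM2 Control 1, LM3 Control 1 and 3 and LM1_LM Control 2, each the only such culture of its group other than the pair in LM3. In them Pgk1-rs7 stood at 1.72% to 2.43% of the count of Pgk1, and the other 38 libraries had at most 4 counts. The part of the count estimation in this was not tested. Pgam1-ps2, by contrast, was counted in many libraries, with up to 714 counts. The other 9 named copies of Aldoa, Gapdh, Pgk1, Pgam1 and Ldha reached at most 15 counts in any library.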
